A study of Mus musculus with 12 samples.

Results

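miR-132 and miR-212 are neighbouring microRNA genes, named Mir-132-P1 and Mir-132-P2 in the deposited table. The table was searched for every row of either gene, on both arms and with any sequence variant. This gave 4 of 513 rows, the 3p and 5p arm of each gene, with no variant row. All 4 had a mean of at least 10 normalized counts over the libraries and entered the tests. The rows were chosen by name and by earlier interest in these data, not by a threshold on a value.

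The hippocampi of 12 male wild-type C57BL/6J mice were profiled by small RNA sequencing, 1 library per mouse. The exercised lineage holds 6 F2 mice whose grandfathers (F0) exercised, and the sedentary lineage holds 6 F2 mice whose grandfathers did not, with descent followed through the fathers. The F2 mice of both lineages carry the same labels otherwise, and the labels give no age and no exercise of their own. The question of the design is whether grandpaternal exercise left a difference in hippocampal microRNAs.

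A microRNA is cut from a hairpin precursor whose 5p and 3p arms pair with each other, and either arm can be loaded into an Argonaute protein and kept. The loaded arm recognises messenger RNAs mainly through its seed, bases 2 to 8 from the 5′ end. In neurons of rats and mice, miR-132 and miR-212 are transcribed together in response to synaptic activity and neurotrophins through the transcription factor CREB. miR-132 is known there for promoting the growth and branching of dendrites.

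On mouse build mm10 (GRCm38), GENCODE places both hairpins on the plus strand of chromosome 11. Mir212 spans 75173388 to 75173478 and Mir132 spans 75173682 to 75173747, with 203 bp between them. Both lie in intron 1 (75172598 to 75173977) of the non-coding gene 1700016P03Rik, between its exons 1 and 2. Mir212 begins 828 bp downstream of the start of that gene. The annotation thus has both hairpins within the same transcript, with Mir212 nearer its start.

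The mature sequences (RefSeq, GRCm38.p6) are shown because the 3p arms share their seed and the 5p arms do not, with the seed in capitals.
miR-132-3p: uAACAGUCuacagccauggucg
miR-212-3p: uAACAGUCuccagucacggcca
miR-132-5p: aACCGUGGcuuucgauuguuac
miR-212-5p: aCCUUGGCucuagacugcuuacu
The 3p arms are identical over their first 9 bases and at 17 of 22 positions in all. Counted from the 5′ end, with the base of miR-132-3p first, they differ by A10C, C14U, U17C, U20C and G22A. Of the 1738 mature mouse microRNAs in the RefSeq table, 2 have the seed AACAGUC, and they are these 2 arms. The seeds ACCGUGG and CCUUGGC of the 5p arms occur in 1 mature microRNA each. Aligned from their first base, the 5p arms match at 9 of 22 positions, and at 14 when shifted by 1 base. The 5p arms therefore read different seeds although they come from paralogous hairpins.

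The hairpins (RefSeq, GRCm38.p6) show where the arms lie, with the mature arms in capitals and the 5p arm first.
miR-132 hairpin: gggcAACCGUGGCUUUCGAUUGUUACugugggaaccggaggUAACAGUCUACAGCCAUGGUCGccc
miR-212 hairpin: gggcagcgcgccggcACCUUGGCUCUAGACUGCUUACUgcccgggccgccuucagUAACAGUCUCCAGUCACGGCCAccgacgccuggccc
The miR-132 hairpin is 66 bases long and the miR-212 hairpin 91. Their G and C contents are 57.6% and 69.2%.

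Depth was 6862623 to 10219856 reads per library, taking the step between values in a library as 1 read. Of the 12 libraries, F2_exercised replicate 1 stood apart, with a median deviation of 0.377 on the log2 scale from the median of all libraries over the tested arms, against 0.106 to 0.218 in the other 11. Results are therefore also given without it. The submitters' codes put the libraries into 4 sets of 3 (stems R31 and R41 for the exercised lineage, S11 and S41 for the sedentary one) whose meaning is not labelled. If mice with the same stem are related, p-values are too small. Neuronal microRNAs (Mir-9, Mir-124 and others, 17 rows, none at 0 in all libraries) summed to 1947079 to 3405218 normalized counts in exercised-lineage mice and 2531052 to 3268355 in sedentary-lineage mice. Markers of the labelled tissue were thus present in every library.

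miR-132 was the more abundant neighbour by far, and its arms were present at near equal levels. Normalized counts are reads divided by 1 size factor per library, so they compare libraries and are not corrected for how well a given sequence is captured. miR-132-3p ranked 60 and miR-132-5p 66 of 513 rows by mean level. miR-212-5p ranked 118 and miR-212-3p 194. Over the 12 libraries miR-132-3p averaged 0.160% and miR-212-3p 0.00774% of all values.

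In the exercised lineage miR-132-3p had a lowest value of 12179.9, a median of 12924 and a highest value of 17197 normalized counts, against 9612, 11453 and 21716 in sedentary-lineage mice. The exercised-lineage values lay within the range of the sedentary ones, and F2_sedentary replicate 3 was far above the rest. The means were 13655 ± 1910 in exercised-lineage mice and 13043 ± 4578 in sedentary-lineage mice (SD, 6 mice each).

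miR-132-5p had a lowest value of 10795, a median of 11482 and a highest value of 12523 in exercised-lineage mice, against 9035, 10572 and 13499.6 in sedentary-lineage mice. Again the sedentary values enclosed the exercised ones, with F2_sedentary replicate 3 highest and replicate 1 lowest. The means were 11628 ± 706 in exercised-lineage mice and 10777 ± 1530 in sedentary-lineage mice (SD, 6 mice each). This arm was among the steadier ones in the table. Its SD over the 12 libraries was 0.16 on the log2 scale, place 53 of 474 tested arms from the lowest, where the median was 0.29.

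miR-212-3p had a lowest value of 589, a median of 629.9 and a highest value of 883 in exercised-lineage mice, against 460.3, 599 and 670.0 in sedentary-lineage mice. F2_exercised replicates 1 and 6 stood above every other library, and the remaining values of the lineages overlapped. The means were 693 ± 133 in exercised-lineage mice and 577 ± 83.8 in sedentary-lineage mice (SD, 6 mice each).

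miR-212-5p had a lowest value of 1626, a median of 2431 and a highest value of 2695 in exercised-lineage mice, against 2159.6, 2751 and 3348 in sedentary-lineage mice. The same F2_exercised replicates 1 and 6 were here the lowest of all 12 libraries. The means were 2227 ± 458 in exercised-lineage mice and 2734 ± 539 in sedentary-lineage mice (SD, 6 mice each).

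**Figure D1:**
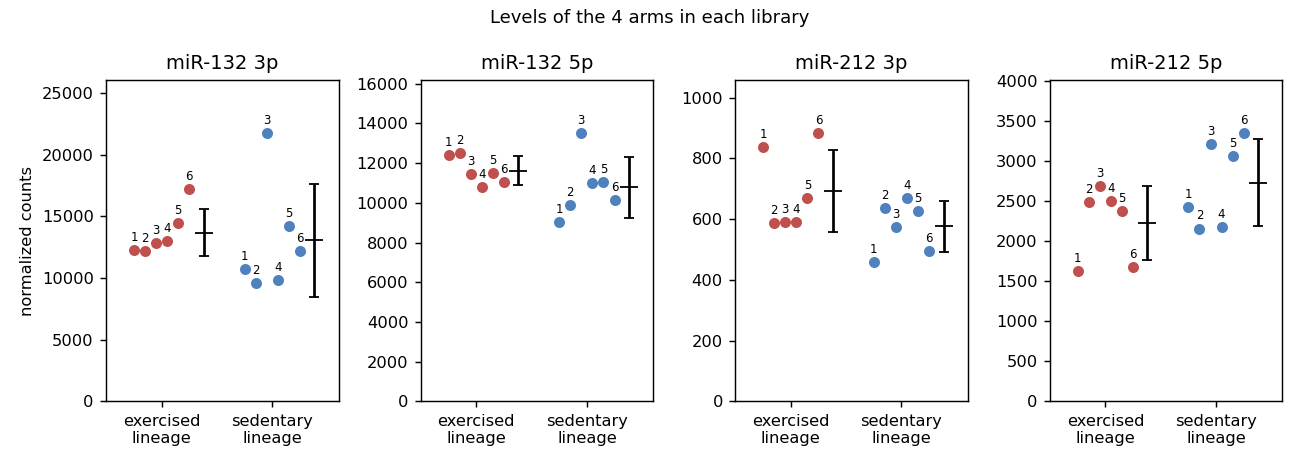
Normalized counts (linear axis from 0) of the 4 arms, with 1 point per library numbered by replicate and the mean ± SD of the 6 libraries beside each lineage. F2_sedentary replicate 3 is highest for both arms of miR-132, and F2_exercised replicates 1 and 6 are highest for miR-212 3p and lowest for miR-212 5p.

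The spread between mice was wider than counting gives. For miR-132-3p the coefficient of variation was 14.0% in exercised-lineage and 35.1% in sedentary-lineage mice, where counting noise alone would give 0.856% in exercised-lineage and 0.907% in sedentary-lineage mice. For miR-212-3p, the least read of the 4 arms with 378 to 904 reads per library, the coefficient was 19.3% in exercised-lineage mice, where counting would give 3.83%, and 14.5% in sedentary-lineage mice, where counting would give 4.23%. Intervals from counts cover counting error only, since the protocols name no molecular identifiers that would tell PCR copies apart.

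No arm of either gene differed between the lineages at an adjusted p below 0.05. The fold is exercised minus sedentary on the log2(value + 1) scale, tested with limma over all 474 tested arms. limma called 0 of 474 arms (0%), and 34 (7.17%) had an unadjusted p below 0.05. Of the 4 arms here, 0 had an unadjusted p below 0.05, and the values of the lineages overlapped for all 4, as for every tested arm (0% without overlap).

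For miR-132-3p the fold was 0.12 (95% confidence interval -0.27 to 0.51, limma adjusted p = 0.829). With 1 library left out it ran from 0.04 (without F2_sedentary replicate 2) to 0.28 (without F2_sedentary replicate 3), and it was 0.05 without F2_sedentary replicate 4 or F2_exercised replicate 6. For miR-132-5p the fold was also 0.12, with a narrower interval of -0.09 to 0.32 (limma adjusted p = 0.625). It was 0.07 without F2_sedentary replicate 1 and 0.19 without F2_sedentary replicate 3. Scaled by library totals, the folds were 0.20 for miR-132-3p and 0.21 for miR-132-5p. For each of these arms, 6 of 6 exercised-lineage libraries lay above the sedentary median. For miR-132-3p, 2 of 6 sedentary libraries lay above the exercised median, and for miR-132-5p 1 of 6 did.

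The arms of miR-212 had folds of opposite sign. That of miR-212-3p was 0.26 (-0.04 to 0.55, limma adjusted p = 0.532), with 3 of 6 exercised-lineage libraries above the sedentary median. That of miR-212-5p was -0.30 (-0.65 to 0.05, limma adjusted p = 0.532), with 0 of 6 above it. Without F2_exercised replicate 1 these folds were 0.20 and -0.21, and those of miR-132-3p and miR-132-5p were 0.15 and 0.10. Scaling by library totals moved the median fold of all tested arms by about 0.08, and on that scale the folds were 0.34 for miR-212-3p and -0.21 for miR-212-5p. In bulk tissue, fewer cells of a type and less RNA per cell cannot be told apart.

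**Figure D2:**
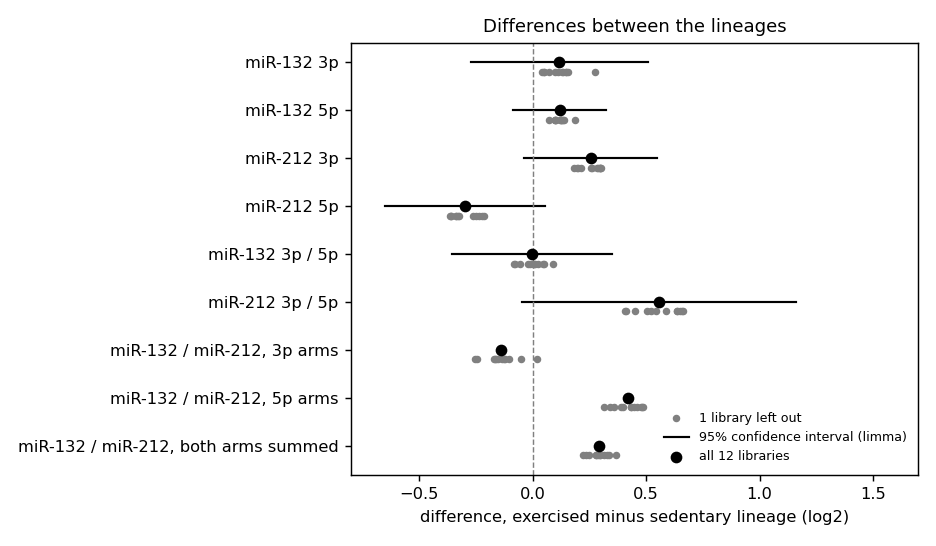
Differences between the lineages (exercised minus sedentary, log2) for the 4 arms, for the ratio of the arms of each gene and for the ratio of miR-132 to miR-212. Black points use all 12 libraries, lines are 95% confidence intervals from limma and grey points leave out 1 library each. Every interval drawn includes 0, and the 3p to 5p ratio of miR-212 has the highest difference at 0.56.

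The reads of the neighbours were split differently between the arms: in all 12 libraries the ratio of 3p to 5p was higher for miR-132 than for miR-212. Both arms are read in the same library, so the size factor all but cancels from the ratio. Unequal capture of the sequences does not cancel, so the ratio is one of reads, not of molecules. miR-132 was balanced: its 3p arm took 53.8% ± 4.28 of the reads of both arms in exercised-lineage mice and 53.9% ± 5.15 in sedentary-lineage mice (SD, 6 mice each). The 12 libraries ran from 47.2% to 61.7%, with 95% Wilson intervals of at most ± 0.766 percentage points.

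miR-212 was read mostly from its 5p arm. Its 3p arm took 24.4% ± 7.70 of the reads in exercised-lineage mice and 17.9% ± 4.32 in sedentary-lineage mice (SD, 6 mice each). The 12 libraries ran from 12.9% to 34.5%, with Wilson intervals of at most ± 1.84 percentage points. In all 12 libraries the 5p arm of miR-212 exceeded the 3p arm, on average 3.87-fold.

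Among the 155 genes with both arms tested, a ratio as even as that of miR-132 was uncommon. Its mean log2 ratio of 3p to 5p was 0.22, and 6 of the 155 genes (3.87%) had a ratio closer to even. The median distance from even was 3.58 on the log2 scale, and the quartiles of the ratio were -4.38 and 3.06. The mean of miR-212 was -1.95, and 51 genes (32.9%) were closer to even. The deposited names mark a passenger arm with an asterisk, and miR-132 and miR-212 were among the 16 genes (10.3%) that have no arm so marked. The genes nearest in ratio were Mir-667 (0.31) and Mir-3068 (0.11) for miR-132, and Mir-130-P1b (-1.93) and Mir-330 (-2.03) for miR-212.

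**Figure D3:**
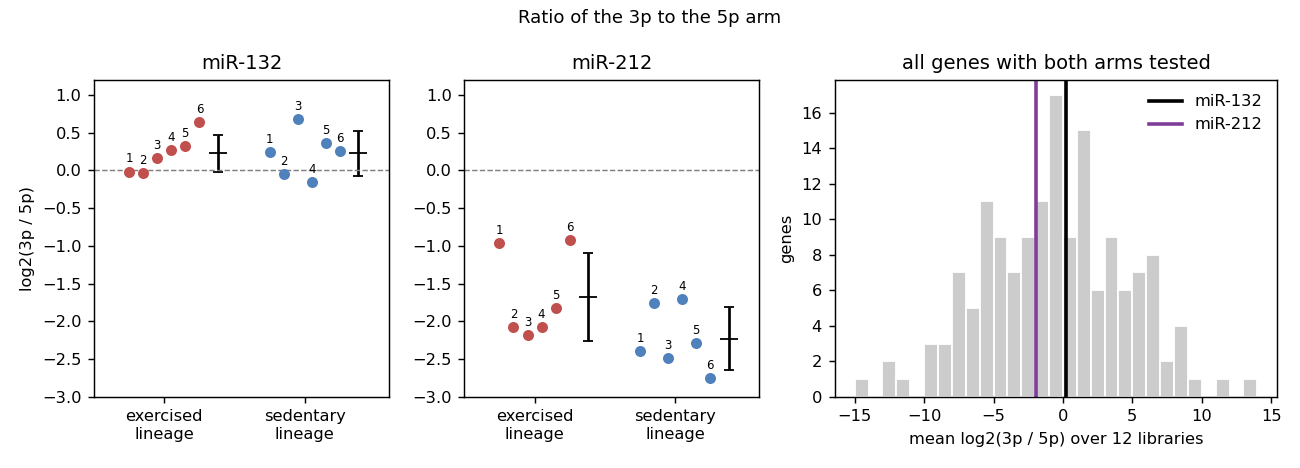
Log2 ratio of the 3p to the 5p arm in each library for miR-132 (left) and miR-212 (middle), numbered by replicate with mean ± SD, and the mean ratio of the 155 genes with both arms tested (right). miR-132 lies near 0 in both lineages, and F2_exercised replicates 1 and 6 have the highest ratios of miR-212.

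By lineage, the log2 ratio of miR-132 was 0.22 ± 0.25 in exercised-lineage and 0.22 ± 0.30 in sedentary-lineage mice (SD, 6 mice each). The difference was -0.00 with an interval of -0.35 to 0.35 (limma adjusted p = 0.992).

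For miR-212 the log2 ratio had a lowest value of -2.19, a median of -1.95 and a highest value of -0.92 in exercised-lineage mice, against -2.76, -2.35 and -1.70 in sedentary-lineage mice. F2_exercised replicates 1 and 6 lay above all other libraries, and 6 of 6 exercised-lineage libraries lay above the sedentary median. The difference was 0.56 (SE 0.28, 95% confidence interval -0.05 to 1.16, limma adjusted p = 0.535), and the exact two-sided permutation test over all assignments of 6 libraries to each lineage gave p = 0.0996. limma called 0 of 155 ratios (0%), 10 (6.45%) had an unadjusted p below 0.05, and 0 of the 2 ratios here were among them. Without F2_exercised replicate 1 the difference was 0.41, and without replicate 6 it was also 0.41. Tested only over genes with a mean of at least 100 normalized counts on both arms, the limma p of the ratio of miR-212 was 0.0478 before and 0.326 after adjustment.

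The ratio of miR-212 had the wider spread among mice, a difference that was not tested. Its SD over the 12 libraries was 0.56, against 0.26 for miR-132 and a median of 0.39 over the 155 genes. From the lowest to the highest library it spanned 3.56-fold, against 1.80-fold for miR-132. Counting noise would give an SD of 0.066 for miR-212 and 0.019 for miR-132.

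How much miR-132 there was per miR-212 was compared in the same way. With both arms summed, miR-132 exceeded miR-212 8.78 ± 1.44 fold in exercised-lineage and 7.18 ± 1.15 fold in sedentary-lineage mice (SD, 6 mice each). The difference was 0.29 on the log2 scale, with 6 of 6 exercised-lineage libraries above the sedentary median, and did not pass after adjustment over 3 ratios (exact permutation p = 0.0541, adjusted p = 0.0812). The result depended on which library was left out. Without F2_sedentary replicate 3 the difference was 0.37 (exact permutation test, adjusted p = 0.0195). Without F2_exercised replicate 1 it was 0.25 (adjusted p = 0.153 by the same exact test).

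For the 5p arms alone the ratio was 5.45 ± 1.37 in exercised-lineage and 4.03 ± 0.725 in sedentary-lineage mice, a log2 difference of 0.42 (exact permutation p = 0.0411, adjusted p = 0.0812). Here too 6 of 6 exercised-lineage libraries lay above the sedentary median, and 1 of 6 sedentary libraries lay above the exercised median. For the 3p arms, which share a seed, the ratio was 20.0033 ± 2.77 in exercised-lineage and 23.0 ± 8.44 in sedentary-lineage mice, a log2 difference of -0.14 (exact permutation p = 0.602). That difference was 0.02 without F2_sedentary replicate 3, the library with the highest ratio, 37.8. For the 3p arms 0 of 6 exercised-lineage libraries lay above the sedentary median, and 4 of 6 sedentary libraries lay above the exercised median.

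None of the 4 pairs of arms that cross the genes had a correlation across mice that passed the test on the values as deposited. All 6 pairs of arms were correlated over the 12 libraries on the log2 scale, with permutation tests of 100000 resamples and adjustment over the 6 pairs. For miR-132-3p with miR-212-3p Pearson's r was 0.20 (permutation adjusted p = 0.628) and Spearman's rho 0.13 (permutation p = 0.684). Without the 2 libraries farthest from the median of miR-132-3p, r was 0.11. For miR-132-5p with miR-212-5p r was 0.00 (permutation adjusted p = 0.992) and rho 0.08 (permutation p = 0.816), with r = -0.33 without the 2 farthest libraries.

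For miR-132-5p with miR-212-3p r was 0.40 (permutation adjusted p = 0.380) and rho 0.18 (permutation p = 0.574). That pair depended on the scaling, with r = 0.74 when libraries were scaled by their totals (permutation adjusted p = 0.0398). Scaled by the upper quartile, it had r = 0.62 and did not pass (permutation adjusted p = 0.0991). On the values as deposited with 1 library left out, its r ran from 0.13 (without F2_sedentary replicate 1) to 0.59 (without F2_sedentary replicate 3). For miR-132-3p with miR-212-5p r was 0.21 (permutation adjusted p = 0.628) and rho 0.26 (permutation p = 0.415). The last pair had r = -0.41 within exercised-lineage mice (exact permutation p = 0.465) and 0.76 within sedentary-lineage mice (exact permutation p = 0.0653).

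With both arms summed, the neighbours had r = 0.30 (permutation p = 0.339, adjusted over 2 relations p = 0.647) and rho = 0.15 (permutation p = 0.649). Without the 2 farthest libraries r was -0.15, and it was -0.53 within exercised-lineage mice (exact permutation p = 0.263) and 0.73 within sedentary-lineage mice (exact permutation p = 0.0542). The arm ratios of the neighbours had r = -0.15 (permutation p = 0.647) and rho = -0.34 (permutation p = 0.286), with r = 0.09 without the 2 farthest libraries. As a description, other neighbouring pairs were taken over the same 12 libraries, each for the most abundant arm. Their r was 0.72 (Mir-191 with Mir-425), 0.81 (Mir-221-P1 with Mir-221-P2) and 0.68 (Mir-143 with Mir-145). The most abundant arms here, miR-132-3p and miR-212-5p, had r = 0.21. The SD of the log2 ratio between neighbours was 0.27, 0.17 and 0.51 in the other pairs. For miR-132 over miR-212 it was 0.38 for the 3p arms, 0.36 for the 5p arms and 0.26 for both arms summed. It was not taken for miR-132-3p over miR-212-5p.

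Within a gene r was above 0 for miR-132 and below 0 for miR-212. The relation passed the test for miR-212 and not for miR-132, and the difference between them was not tested. The arms of miR-132 had r = 0.62 (permutation p = 0.0317, adjusted p = 0.0952) and rho = 0.55 (permutation p = 0.0690). This rested in part on F2_sedentary replicate 3, highest for both arms, without which r was 0.39. It was -0.58 within exercised-lineage mice (exact permutation p = 0.226) and 0.83 within sedentary-lineage mice (exact permutation p = 0.0472). After centring each library on the mean of its code stem r was 0.78 (permutation adjusted p = 0.0218). That p is too small, because the permutation treats the 12 centred values as independent although 4 stem means were removed.

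The arms of miR-212 had r = -0.78 (permutation p = 0.00341, adjusted p = 0.0205) and rho = -0.76 (permutation p = 0.00635, adjusted p = 0.0381). The relation was weaker without F2_exercised replicates 1 and 6, the 2 libraries farthest from the median of miR-212-3p: r was then -0.42 (permutation p = 0.226). Leaving out the most extreme libraries narrows the range of values, which can by itself weaken r. Without F2_exercised replicate 6 alone, r was -0.69 (permutation adjusted p = 0.0620). Within exercised-lineage mice r was -0.97 (exact permutation p = 0.0167, adjusted p = 0.1) and rho -0.71 (exact permutation p = 0.136). Within sedentary-lineage mice r was -0.36 (exact permutation p = 0.433, adjusted p = 0.52) and rho -0.60 (exact permutation p = 0.242). Centred on code stems, r was -0.76 (permutation adjusted p = 0.0218), where p is again too small because stem means were removed. Centred on lineage means, r was -0.71 and did not pass (permutation adjusted p = 0.0826). Scaled by library totals, r was -0.57 and did not pass (permutation adjusted p = 0.106). Without F2_exercised replicate 1 alone, r was -0.70 (permutation adjusted p = 0.0664).

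**Figure D4:**
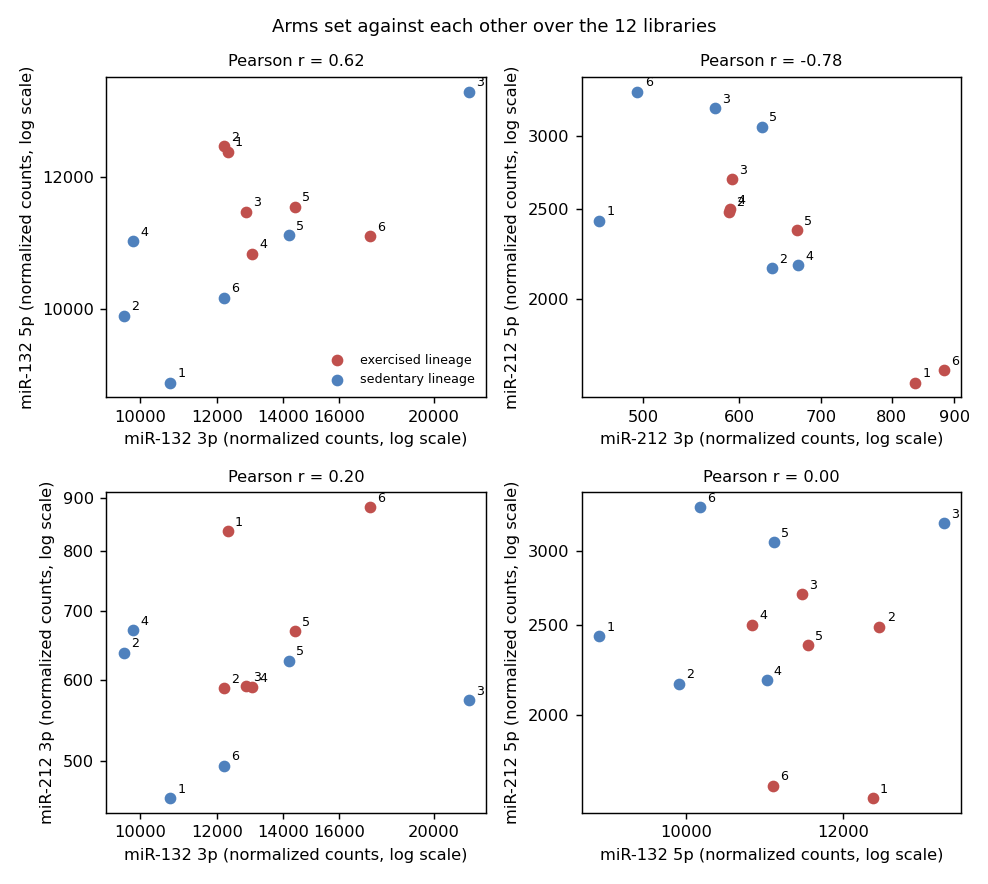
Normalized counts (log axes) of pairs of arms in the 12 libraries, numbered by replicate: the arms of miR-132, the arms of miR-212, the 3p arms of both genes and the 5p arms of both genes. The arms of miR-212 run opposite to each other (r = -0.78), with F2_exercised replicates 1 and 6 at one end, and the pairs that cross the genes have r of 0.20 and 0.00.

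Set beside the 155 genes with both arms tested, the arms of miR-212 lay at the low end of co-variation. The median r of the 3p with the 5p arm was 0.16, with quartiles of -0.16 and 0.52, and 60 genes lay below 0. Of all 155 genes, 1 had a lower r than miR-212, namely Mir-342 at -0.83. miR-132 had 28 genes above it. Where both arms had a mean of 1000 or more normalized counts the median was 0.42 over 26 genes, and where both had 500 or more, 0 of 39 genes lay below miR-212. The place of miR-212 shifted with the scaling: 11 genes were lower when libraries were scaled by totals, 1 when scaled by the upper quartile and 4 without F2_exercised replicate 1. These r share libraries and size factors and are a description.

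**Figure D5:**
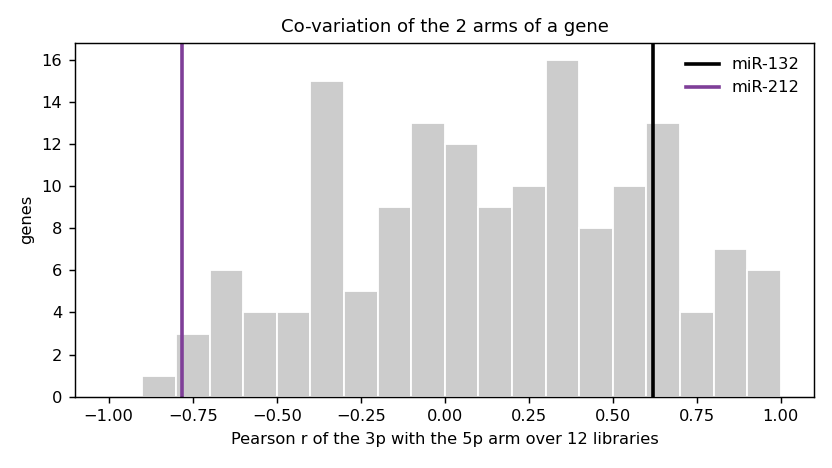
Pearson r of the 3p with the 5p arm of a gene over the 12 libraries, for the 155 genes with both arms tested (bars), with miR-132 and miR-212 as lines. miR-212 lies near the low end at -0.78 and miR-132 at 0.62, on either side of the median of 0.16.

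The arms whose levels ran most like each member were taken as the 3 with the highest r among the other 473 tested arms, again as a description over 12 libraries. For miR-132-3p they were Mir-30-P1b_3p (0.81), Mir-26-P3_5p (0.77) and Mir-30-P1a_3p* (0.75). For miR-132-5p they were Mir-17-P4_3p* (0.80), the 5p arm of Mir-330 (0.77) and the 3p arm of Mir-191 (0.76). Each arm of miR-132 stood high in the order of the other, at 12 and 10 of 473.

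For miR-212-3p the nearest were Mir-350_3p (0.95), Let-7-P11_3p* (0.94) and Mir-324_5p (0.92). For miR-212-5p they were Mir-1198_5p (0.96), the 5p arm shared by Mir-26-P1 and Mir-26-P2 (0.92) and Mir-1964_3p (0.90). In the order of r, miR-212-5p came 454 of 473 for miR-212-3p, near the bottom. miR-212-5p was at place 122 for miR-132-3p and 234 for miR-132-5p.

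Other microRNAs tied to neuronal activity and plasticity, such as Mir-124, Mir-138 and Mir-9, were looked at as a list of 19 families, chosen with earlier results of these data known. Of these, 18 had a row, and 60 of their 61 arms were tested. limma called 0 of the 60 in either direction, where it called 0% of all arms. An unadjusted p below 0.05 was found for 2 of the 60, against 34 of all 474 tested arms (7.17%). Their folds ran from -0.57 to 0.55, with 35 above and 25 below 0 and a median of 0.04, against -0.00 over all tested arms. The most abundant arm of the list, Mir-9 5p (a row common to several Mir-9 genes), ranged from 1310292 to 2629611 normalized counts in exercised-lineage and 1827579 to 2280907 in sedentary-lineage mice. The 3p arm common to the Mir-128 genes had a fold of -0.18 (limma adjusted p = 0.596).

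Levels of other cell types in the tissue varied between libraries but overlapped between the lineages for each of 10 marker lists, and limma called none of their rows (0 rows). Choroid plexus and ependyma markers (4 rows, none at 0 in all libraries) summed to 29846 to 161274 in exercised-lineage and 28667 to 162648 in sedentary-lineage mice. Of 66 relations of the 4 arms and 2 arm ratios with these lists and depth, chosen after the values were seen, 0 had an adjusted permutation p below 0.05. By Pearson's r the lowest p was that of the arm ratio of miR-212 with the neuronal sum, at r = -0.68 (permutation p = 0.0158, adjusted p = 0.474). Its rho was -0.65 (permutation p = 0.0258), and r was -0.53 without the 2 farthest libraries. Most of the neuronal sum was Mir-9 5p, on average 2056516 of 2795256 normalized counts in exercised-lineage and 2131174 of 2958769 in sedentary-lineage mice. miR-212-5p with the liver marker Mir-122_5p had r = 0.61 (permutation p = 0.0359, adjusted p = 0.474) and rho = 0.71 (permutation p = 0.0118), with r = 0.79 without the 2 farthest libraries. The same ratio had r = 0.62 and rho = 0.64 with the first principal component, on which F2_exercised replicate 1 is the most extreme library (permutation p = 0.0320, adjusted over 6 relations p = 0.105). Without the 2 farthest libraries that r was 0.30. Their part in the results was not tested.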

How the data were processed

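Small RNA of 12 mouse hippocampi was extracted with a miRNeasy kit and made into libraries with the NEBNext small RNA kit, per the labels' protocols. The authors deposited a signal per microRNA arm, reads divided by 1 size factor per library, called normalized counts here. Per the submitters' processing notes, Bowtie 1.3.0, build mm10 and DESeq2 were used. How reads were trimmed, how many mismatches were allowed and how reads matching several loci were counted is not given in the sources used here. In each library all values (100%) could be divided by 1 step to give a whole number, within 0.01. The smallest value stood for 2 to 6 reads. The check made before a count model takes the smallest value as 1 read and refused these values, so no count model was fitted. Ligation and amplification act unequally on different sequences, so a ratio between arms or genes is one of reads, not of molecules.

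Arms with a mean of at least 10 were tested with limma 3.58.1 in R 4.3.3 on log2(value + 1), with trended empirical Bayes variances. This scale understates differences of low values. Arm ratios, log2(3p + 1) minus log2(5p + 1), were fitted likewise over 155 genes. P-values were adjusted by Benjamini-Hochberg over all arms or all ratios, with a threshold of 0.05. Single ratios and correlations used two-sided permutation tests (Python 3.11.15, scipy 1.17.1), exact over all assignments of libraries to lineages, or over 720 pairings within a lineage. The limma fits of arms and of arm ratios were checked on simulated data. Members and lists were chosen with earlier results of these data known. The rule for named arms took the 4 rows, the 3 most correlated arms of each, the most abundant arms of the activity list and the genes nearest in arm ratio. No pair of libraries within a lineage agreed within sampling noise, as 1 library deposited as 2 samples would (chi-square per degree of freedom of 141 to 1048 over 30 pairs). This check does not bear on whether the mice are related. Alternatives covered the pseudocount, the filter, the scaling, the code stem, the replicate number and each library left out.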

Additional observations from a re-analysis of the deposited data

Results flagged for a closer look

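Of 18 sets of 6 libraries examined (each arm and ratio in each lineage), 1 held a library far from the others. The log2 ratio of miR-132-3p to miR-212-3p was 3.88 in F2_exercised replicate 1, a gap from the other 5 libraries of its lineage that exceeded Dixon's 95% critical value of 0.625. Chance flags about 1 in 20 such groups. The same library had the largest median deviation from the other libraries over the tested arms (0.377 on the log2 scale).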

How the results depend on the processing

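The 17 results gave 384 comparisons of a result with its value under an alternative setting. Of these, 339 kept their direction and their side of the threshold, 31 reversed, 11 lost significance and 3 gained it. The folds of miR-132-5p, miR-212-3p and miR-212-5p, the arm ratio of miR-212 and the 5p and summed ratios between the genes kept their sign in all settings run. The cause of the changes below was not tested.

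With 1 library left out, the number of arms and of arm ratios called stayed at 0. The arm ratio difference of miR-132 ran from -0.084 to 0.091. Between the genes, the 3p ratio ran from -0.25 to 0.020 and the summed ratio from 0.22 to 0.37. In the same way r ran from 0.39 to 0.69 for the arms of miR-132, from -0.027 to 0.44 for the 3p arms, from -0.092 to 0.51 for miR-132-3p with miR-212-5p, from 0.13 to 0.59 for miR-132-5p with miR-212-3p, from -0.28 to 0.22 for the 5p arms and from -0.91 to -0.69 for the arms of miR-212. The last lost its call without F2_exercised replicate 1, F2_exercised replicate 6 or F2_sedentary replicate 6.

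Leaving out a whole code stem gave a fold of -0.0075 for miR-132-3p (without R41) and arm ratio differences for miR-132 of 0.19 without R31, -0.19 without R41, 0.070 without S11 and -0.073 without S41. Without S11, r was -0.038 for the arms of miR-132, -0.19 for miR-132-3p with miR-212-5p and -0.49 for the 5p arms. Without R41, r was -0.067 for the 3p arms and -0.0016 for the 5p arms. For the arms of miR-212, r was -0.70 without R31, -0.69 without R41 and -0.79 without S41, none past the threshold, and -0.93 without S11, past it (permutation adjusted p = 0.00528). Centred on stems, r of the arms of miR-132 was 0.78 and passed, which is among the gains counted above. Its permutation p is too small because stem means were removed. With the code stem as a random block, limma called 0 arms and 0 arm ratios. The correlation estimated within a stem was -0.0041 over arms and 0.023 over arm ratios. The arm ratio difference of miR-212 was then 0.56 (limma adjusted p = 0.592). This fit does not show whether mice with the same stem are related.

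Scaled by library totals, r was 0.74 for miR-132-5p with miR-212-3p, which passed, -0.035 for the 5p arms and -0.57 for the arms of miR-212. Scaled by the upper quartile, r of the 5p arms was -0.12. Without the 2 farthest libraries, r was -0.33 for the 5p arms and -0.42 for the arms of miR-212. Centred on lineage means, the arms of miR-212 had r = -0.71 and lost their call (permutation adjusted p = 0.0826). Within the exercised lineage r was -0.58 for the arms of miR-132, -0.41 for miR-132-3p with miR-212-5p, -0.16 for the 5p arms and -0.97 for the arms of miR-212. Within the sedentary lineage it was -0.075 for the 3p arms and -0.36 for the arms of miR-212.

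Libraries share replicate numbers across the lineages, but same-numbered libraries did not deviate together (r of -0.17 to 0.15, 1 of 6 above 0.1), and 1 of 6 correlated best with its own number. With the replicate number as a block, 0 arms and 0 arm ratios were called, and the arm ratio difference of miR-212 was 0.56 (limma adjusted p = 0.730). The block changed no call. Count models on recovered reads (edgeR and DESeq2) were planned and not run, because the check made before them takes the smallest value as 1 read. The median 95% interval of an arm ratio difference was ± 0.47 on the log2 scale over the 155 genes, with 6 mice per lineage.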
